A study of Mus musculus with 6 samples.

Results

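The 41 genes described here are markers of the thymic niche, a few of them shared with thymocytes or other leukocytes: cortical and medullary thymic epithelium, the signals these cells give to developing T cells, and the mesenchymal and endothelial cells around them. They were chosen by name, and each was read from its probe set with a single gene symbol and the highest mean over all arrays. All 41 were found among the 19937 genes read in that way. The study hybridised RNA of double-negative (DN) thymocytes of the mouse, precursors with neither CD4 nor CD8, to 6 Affymetrix arrays in 2 groups of 3. The first group, DNTLX3+, holds DN thymocytes of wild-type C57Bl/6 mice that received the retrovirus pMSCV-GFP-TLX3, which carries the leukaemia homeobox gene TLX3. Per the labels they were then grown for 4 to 5 weeks on irradiated OP9-DL1 cells, a stromal line presenting a Notch ligand, with interleukin 7 and Flt3 ligand in the medium. The second group, RAG-/-, holds DN thymocytes of Rag2-/- mice, which cannot assemble antigen receptor genes. An age of 4 to 6 weeks is listed for the mice of both groups, from protocols that state it for C57Bl/6 mice. The protocols describe magnetic depletion of CD4- and CD8-bearing cells followed by flow sorting, and do not make clear whether the RAG-/- cells were cultured. Genotype, virus and, as far as the labels show, culture differ together between the groups. No array of cells given the empty virus was analysed here. Whether a replicate is its own mouse or culture is not labelled, so the spread behind each p-value may be technical.

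The thymic cortex is built by epithelial cells that depend on the transcription factor Foxn1. They attract progenitors with chemokines, hold them to the T lineage with a Notch ligand, and display peptides cut by proteases that few other cells make. Medullary epithelial cells screen later thymocytes against tissue antigens under the control of Aire, while mesenchymal cells supply matrix and growth factors to both. None of these cells is a thymocyte, and a sort of DN thymocytes is not meant to hold them.

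Values are log2 expression as deposited, and every difference is DNTLX3+ minus RAG-/-. A gene was called when its limma p-value, adjusted by Benjamini-Hochberg over 28192 probe sets, was under 0.05 and its difference was at least 1 log2 unit. Array medians lay between 6.22 and 6.35, and a group mean under them may be background; the true size of a difference is then unknown. The spread of signal differed between the groups, with an interquartile range of 2.47 to 2.85 on the DNTLX3+ arrays and 3.09 to 3.18 on the RAG-/- arrays. DNTLX3+ replicate 1 had the narrowest range. The median gene differed by 0.11. Tlx3 itself stood at 7.09, 6.52 and 6.45 on the DNTLX3+ arrays, against 5.40, 5.42 and 5.52 on the RAG-/- arrays. The T-lineage gene Cd3g, which encodes a CD3 subunit, was bright on both sides. It lay between 12.63 and 12.78 on the DNTLX3+ arrays and between 13.09 and 13.14 on the RAG-/- arrays. The 12 T-lineage markers read, described below, had a median difference of -0.56. RAG-/- replicate 3 stood apart from the other RAG-/- arrays for many of the 41 genes, and the values without it follow those of the genes.

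Of the 41 genes, 15 were lower in DNTLX3+ cells, none was higher and 26 were not called (limma). Over all genes, 5.07% were called lower and 1.44% higher. The median difference of the 41 was -0.65. By role, all 7 cortical epithelial genes were lower, as were 4 of 6 niche signals, 1 of 5 medullary genes and 3 of 12 mesenchymal genes. The 5 epithelial regulators, the 2 general epithelial genes, the 3 endothelial genes and Thy1 were not called. For 10 of the 15 called genes the DNTLX3+ mean lay under the array medians, as for 8904 of all 19937 genes. They were Prss16, Psmb11, Tbata, Ccl25, Cxcl12, Il7, Vcam1, Krt5, Dcn and Fn1, and the true size of their differences is unknown. In 23 of the 41 genes every DNTLX3+ array lay below every RAG-/- array, which held for 26.0% of all genes, and in 2 genes every DNTLX3+ array lay above, against 32.3% of all genes. In a bulk sample, fewer cells of a type and less RNA per cell cannot be told apart.

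**Figure D1:**
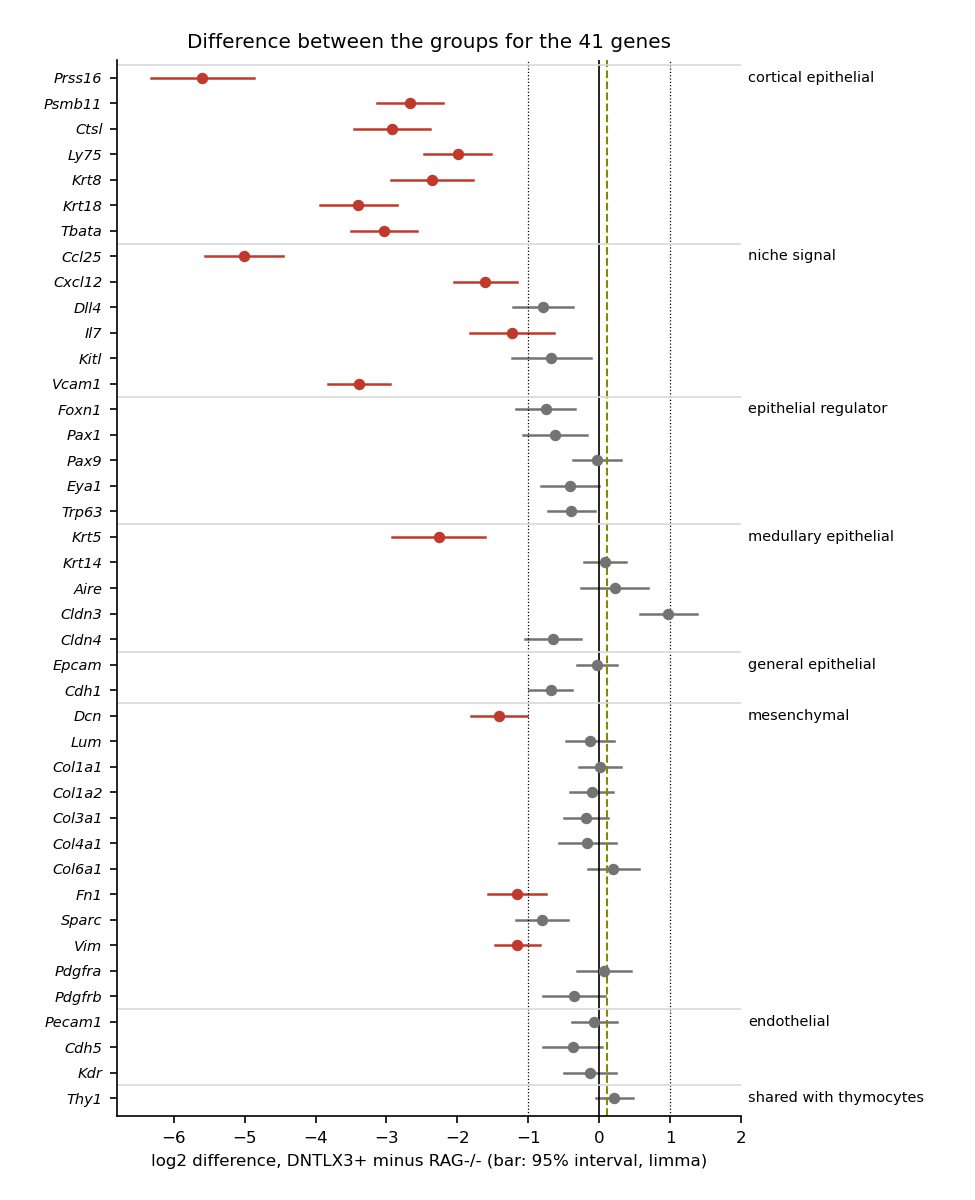
Log2 difference (DNTLX3+ minus RAG-/-, x axis) of each of the 41 genes, grouped by role, with its 95% interval from limma. Red marks the 15 genes called lower, dotted lines stand at 1 log2 unit on either side of 0, and the dashed line is the median of all genes at 0.11; the 7 cortical genes lie between -5.60 and -2.00.

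Sequence upstream of the genes is shown for the 3 called niche and cortical genes that hold the core letters bound by Foxn1, since Foxn1 is the regulator of this epithelium. Promoter sequences from RefSeq on GRCm38.p6 were matched for 27 of the 41 genes, 10 of them called lower. The 250 bases before each start were searched on both strands for GACGC. It was present for 7 of the 27 genes, against 24.8% of 27025 genes with a listed promoter. Of the 10 called lower it was present for 3 (Psmb11, Ccl25 and Cxcl12). Of the 17 not called it was present for 4 (Aire, Kdr, Kitl and Pax1), which are not printed here. In Psmb11, Ccl25 and Cxcl12 a match began 62, 56 and 62 bases before the start, in that order. A match 50 to 70 bases before the start was present for 3 of the 27 genes (11.1%) and for 3.54% of all genes with a promoter. This window was chosen after the matches were seen, so these shares do not make a test. A match is a description of letters and not a bound site. In the sequences below, read 5′ to 3′ on the gene's strand, capitals mark GACGC or its reverse complement GCGTC. The Psmb11 window is chr14:54625060-54625309 on the plus strand, that of Ccl25 is chr8:4324960-4325209 on the plus strand, and that of Cxcl12 is chr6:117168285-117168534 on the plus strand. Ccl25 has a second listed start, at which the window chr8:4349338-4349587 holds no match.
Psmb11: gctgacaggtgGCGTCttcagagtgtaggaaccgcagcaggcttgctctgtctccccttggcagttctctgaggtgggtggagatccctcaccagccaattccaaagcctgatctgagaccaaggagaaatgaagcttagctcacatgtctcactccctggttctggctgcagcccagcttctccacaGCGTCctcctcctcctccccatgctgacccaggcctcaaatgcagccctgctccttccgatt
Ccl25, start with the match: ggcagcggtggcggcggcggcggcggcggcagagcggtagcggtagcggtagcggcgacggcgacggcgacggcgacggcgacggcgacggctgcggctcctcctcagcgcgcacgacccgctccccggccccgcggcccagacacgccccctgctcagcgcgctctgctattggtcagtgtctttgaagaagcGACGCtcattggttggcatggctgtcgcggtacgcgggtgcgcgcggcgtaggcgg
Ccl25, second start: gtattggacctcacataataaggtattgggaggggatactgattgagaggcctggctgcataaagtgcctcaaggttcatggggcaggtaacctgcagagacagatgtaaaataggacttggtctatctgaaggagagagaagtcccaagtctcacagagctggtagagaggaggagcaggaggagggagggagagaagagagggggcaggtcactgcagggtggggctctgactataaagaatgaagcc
Cxcl12: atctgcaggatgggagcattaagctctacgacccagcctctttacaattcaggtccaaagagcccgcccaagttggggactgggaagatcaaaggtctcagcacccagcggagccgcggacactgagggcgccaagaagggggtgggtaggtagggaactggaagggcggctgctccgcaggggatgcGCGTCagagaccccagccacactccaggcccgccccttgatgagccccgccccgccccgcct

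The genes listed as cortical epithelial, some of them shared with other cells, had a median difference of -2.92. The medians were -1.42 for the niche signals and -0.18 for the mesenchymal genes. Prss16, a serine protease of cortical epithelium that shapes peptides for MHC class II, stood at 6.49, 5.60 and 5.59 on the DNTLX3+ arrays, against 11.18, 11.12 and 12.17 on the RAG-/- arrays. The groups were far apart, and replicate 3 was the highest RAG-/- array. The difference was -5.60 ± 0.32 (SE; limma adjusted p = 2.93e-05). No other of the 19937 genes fell by as much in the deposited values. The DNTLX3+ mean lay under the array medians, so the size of this difference is not known beyond the deposited scale.

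Psmb11 encodes the catalytic subunit that makes the thymoproteasome, a proteasome form of cortical epithelium. It was at 5.95, 5.45 and 5.77 on the DNTLX3+ arrays, under the medians, against 8.13, 8.22 and 8.83 on the RAG-/- arrays, with a difference of -2.67 ± 0.21 (SE; limma adjusted p = 7.61e-05). Ctsl, the lysosomal cathepsin L that trims invariant chain in cortical epithelium and is also made by macrophages, was at 7.74, 8.15 and 7.71 on the DNTLX3+ arrays, against 10.61, 10.42 and 11.34 on the RAG-/- arrays. Its difference was -2.92 ± 0.24 (SE; limma adjusted p = 8.91e-05). Both group means lay above the medians, and the level was 7.58-fold higher in RAG-/-. In each of these 3 protease genes, which serve the class I and the class II route of peptide display, the groups did not overlap.

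Ly75 encodes DEC-205, an endocytic receptor of cortical epithelium and of dendritic cells. It had 7.74, 8.23 and 7.97 on the DNTLX3+ arrays, against 9.82, 9.69 and 10.43 on the RAG-/- arrays, a difference of -2.00 ± 0.21 (SE). Tbata, a gene first known from cortical thymic epithelium, had 5.68, 5.63 and 5.98 on the DNTLX3+ arrays, against 8.61, 8.52 and 9.28 on the RAG-/- arrays, a difference of -3.04 ± 0.21 (SE). Both passed limma, with adjusted p of 0.000307 and 4.59e-05.

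Keratins 8 and 18 assemble with each other into the filaments of simple epithelium, and their genes lie on the same chromosome. Krt8 was at 7.50, 6.86 and 6.94 on the DNTLX3+ arrays, against 9.25, 9.12 and 10.01 on the RAG-/- arrays. Krt18 was at 6.63, 6.65 and 6.68 on the DNTLX3+ arrays, against 9.84, 9.62 and 10.68 on the RAG-/- arrays. Both partners were lower, with differences of -2.36 ± 0.25 and -3.39 ± 0.24 (SE; limma adjusted p of 0.00033 and 5.28e-05), that is 5.12-fold and 10.5-fold higher in RAG-/-. DNTLX3+ replicate 1, the array with the narrowest signal range, held the highest DNTLX3+ value of Krt8 and Prss16 but not of Krt18.

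Among the niche signals, Ccl25, the chemokine that draws Ccr9-bearing progenitors into the thymus, was at 5.45, 6.05 and 5.57 on the DNTLX3+ arrays, against 10.62, 10.28 and 11.20 on the RAG-/- arrays. The difference was -5.01 ± 0.24 (SE; limma adjusted p = 1.18e-05), from a DNTLX3+ mean under the medians. A second, dimmer probe set of Ccl25 gave 6.56, 6.56 and 6.63 on the DNTLX3+ arrays, against 7.59, 7.34 and 7.63 on the RAG-/- arrays, and its difference of -0.93 ± 0.13 (SE) fell short of 1. The platform annotation ties the brighter probe set to the coding transcript of Ccl25 and ties the dimmer to a noncoding RefSeq transcript and a cDNA. Neither overlapped between the groups. With the probe sets of a gene averaged, Ccl25 differed by -2.97 and was still called.

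Cxcl12, which binds Cxcr4 on progenitors, was at 6.06, 6.14 and 5.81 on the DNTLX3+ arrays, against 7.36, 7.41 and 8.06 on the RAG-/- arrays (difference -1.61 ± 0.20 SE; limma adjusted p = 0.000561). Vcam1, an adhesion ligand for integrin alpha4 on stroma, endothelium and resident macrophages, was at 5.75, 5.98 and 5.24 on the DNTLX3+ arrays, against 9.15, 8.86 and 9.13 on the RAG-/- arrays (difference -3.39 ± 0.19 SE; limma adjusted p = 2.93e-05). Both were lower without overlap, but the RAG-/- arrays ranked differently: replicate 3 was the highest for Cxcl12 and not for Vcam1.

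The growth and fate signals showed smaller differences. Il7, the cytokine that keeps DN cells alive, was at 4.35, 4.10 and 3.85 on the DNTLX3+ arrays, against 5.25, 4.80 and 5.93 on the RAG-/- arrays. It was called lower (difference -1.23 ± 0.26 SE; limma adjusted p = 0.00633), with both means under the array medians, and lost the call without RAG-/- replicate 3 (-0.92). Dll4, the Notch ligand of cortical epithelium, was at 6.66, 6.66 and 6.23 on the DNTLX3+ arrays, against 7.05, 7.24 and 7.65 on the RAG-/- arrays. Its difference of -0.80 had a 95% interval of -1.22 to -0.37 and passed the adjusted p without reaching 1 log2 unit. Kitl, the ligand of Kit on early progenitors, differed by -0.68 with overlapping groups (limma adjusted p = 0.0515).

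**Figure D2:**
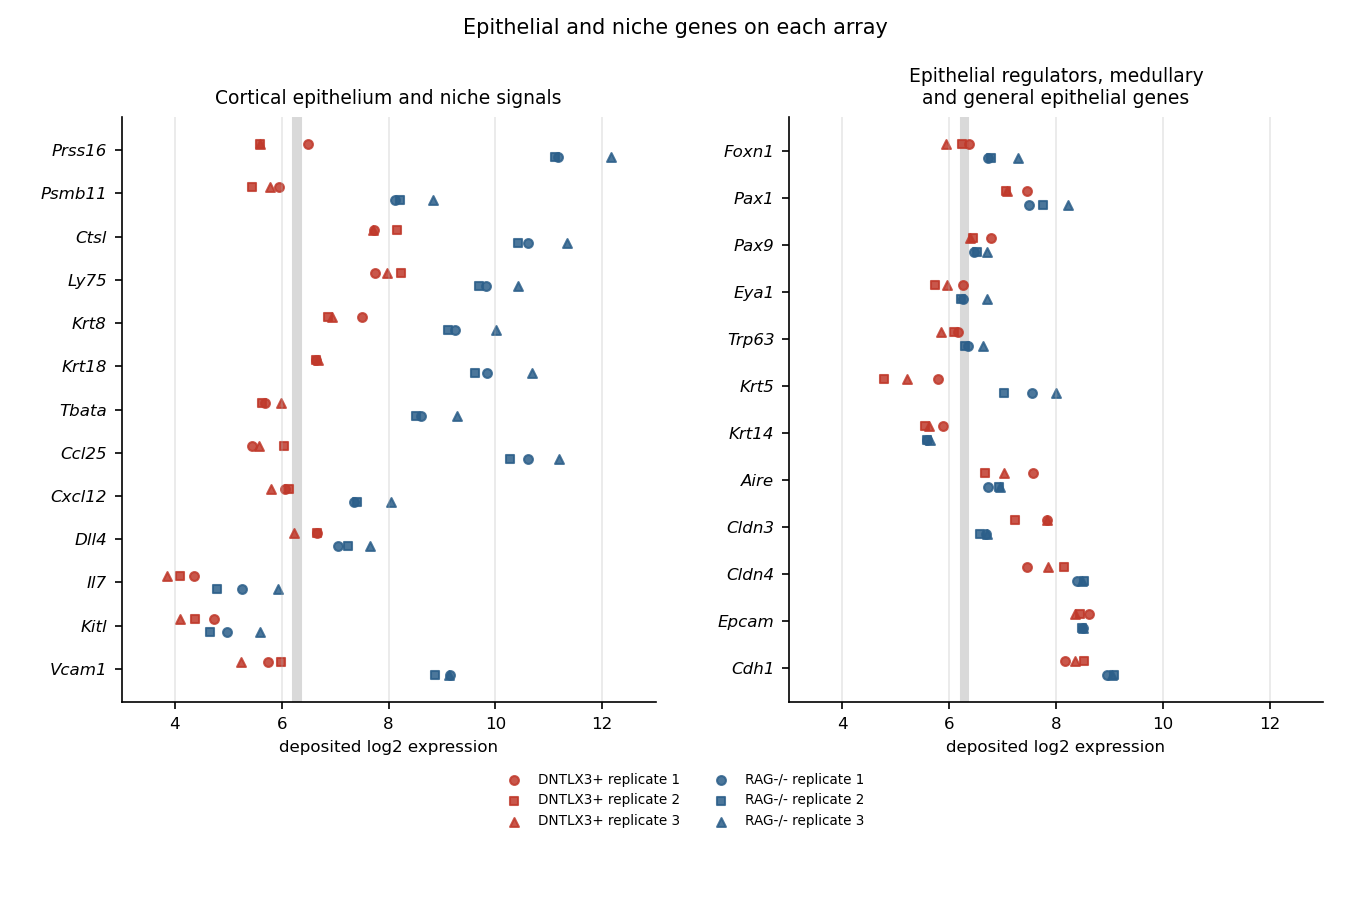
Deposited log2 expression (x axis) of the epithelial and niche genes on each array, with DNTLX3+ in red above RAG-/- in blue and a marker shape for each replicate; the grey band spans the array medians, 6.22 to 6.35. The cortical genes part widely, with RAG-/- replicate 3 (triangle) rightmost in all 7, while Krt14, Aire and Epcam overlap between the groups.

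The transcription factors that build the epithelium gave small differences. Foxn1, which drives Psmb11 and Ccl25 expression in thymic epithelium, was at 6.37, 6.24 and 5.94 on the DNTLX3+ arrays, against 6.72, 6.78 and 7.30 on the RAG-/- arrays. The groups did not overlap, and the difference of -0.75 (95% interval -1.17 to -0.34, limma adjusted p = 0.0111) did not reach 1 log2 unit. Pax1, a pharyngeal pouch factor retained in thymic epithelium, likewise passed the adjusted p at -0.63 and stayed short of 1. Eya1, a cofactor of the pouch stage, differed by -0.41, and Trp63, the p63 factor of epithelial progenitors, by -0.39, with limma adjusted p of 0.0979 and 0.0563. Pax9, a paralog of Pax1, differed by -0.03, with an interval of -0.36 to 0.30. So 2 of 5 regulators passed the adjusted p as lower, where 19.4% of all genes did. Which ones passed depended on the scaling: with quantile normalization repeated and with cyclic loess Pax1 did not pass (limma adjusted p of 0.168 and 0.116), whereas Eya1 (0.0495 and 0.0345) and Trp63 (0.0278 and 0.0186) did.

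Medullary genes did not move together. Krt5, a basal keratin of medullary cells and of cells at the corticomedullary border, was at 5.79, 4.79 and 5.21 on the DNTLX3+ arrays, against 7.55, 7.03 and 7.99 on the RAG-/- arrays. It was called lower (-2.26 ± 0.29 SE; limma adjusted p = 0.00066). Its usual partner Krt14 was at 5.88, 5.55 and 5.62 on the DNTLX3+ arrays, against 5.59, 5.58 and 5.64 on the RAG-/- arrays, all under the array medians. The difference of 0.08 had a 95% interval of -0.22 to 0.38, and was -0.08 with quantile normalization repeated and -0.15 with cyclic loess.

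Aire, the regulator of tissue antigen expression in mature medullary cells, was at 7.56, 6.66 and 7.03 on the DNTLX3+ arrays, against 6.72, 6.93 and 6.95 on the RAG-/- arrays. The groups overlapped, and the interval of the difference was -0.26 to 0.69. The tight junction genes Cldn3 and Cldn4, known from medullary progenitors, went opposite ways. Cldn3 was at 7.84, 7.23 and 7.84 on the DNTLX3+ arrays, against 6.69, 6.58 and 6.71 on the RAG-/- arrays. Its difference of 0.97 just missed the call and passed it at 1.11 with quantile normalization repeated, 1.06 with cyclic loess, 1.002 with array weights and 1.18 without DNTLX3+ replicate 2. Cldn4 was at 7.46, 8.15 and 7.85 on the DNTLX3+ arrays, against 8.40, 8.52 and 8.49 on the RAG-/- arrays, a difference of -0.65 that passed the adjusted p only (limma, 0.0162).

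The 2 surface genes shared by many epithelia were not called. Epcam, an adhesion molecule of thymic epithelium that is also found on other cells, was at 8.62, 8.44 and 8.36 on the DNTLX3+ arrays, against 8.50, 8.49 and 8.51 on the RAG-/- arrays. Its difference was -0.03 with an interval of -0.31 to 0.25, and turned to 0.18 with quantile normalization repeated and 0.15 with cyclic loess. Cdh1, the adherens junction protein E-cadherin, was at 8.17, 8.53 and 8.35 on the DNTLX3+ arrays, against 8.96, 9.08 and 9.05 on the RAG-/- arrays, a difference of -0.68 short of the minimum. RAG-/- replicate 3 lay above the mean of the other RAG-/- arrays by 0.01 for Epcam and 0.03 for Cdh1.

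The 3 fibrillar collagen genes among the 41, Col1a1, Col1a2 and Col3a1, main products of fibroblasts, were not called, and their groups overlapped. Col1a1 was at 7.54, 7.39 and 7.53 on the DNTLX3+ arrays, against 7.44, 7.35 and 7.66 on the RAG-/- arrays, with a difference of 0.01 and an interval of -0.29 to 0.30. Col1a2 and Col3a1 differed by -0.11 and -0.19, the basement membrane gene Col4a1 by -0.17 and the microfibril gene Col6a1 by 0.20, all with overlapping groups. The growth factor receptors Pdgfra (0.07) and Pdgfrb (-0.35) also overlapped. Of these, Col1a1, Col1a2 and Pdgfra changed sign under at least 1 other scaling. None of the 12 mesenchymal genes was called higher in DNTLX3+ cells, which were grown on OP9-DL1 stroma. With 1.44% of all genes called higher, a list of 12 would often hold none, so this count says little. Of 19 further mesenchymal genes described below, 4 passed the adjusted p (limma) as higher and 2 as lower, without reaching 1 log2 unit. RNA of the stroma was not measured apart, and its part in these values was not tested.

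The 3 mesenchymal genes called lower were Dcn, Fn1 and Vim. Dcn, a small collagen-binding proteoglycan, was at 4.97, 5.00 and 5.32 on the DNTLX3+ arrays, against 6.41, 6.28 and 6.83 on the RAG-/- arrays (difference -1.41 ± 0.18 SE; limma adjusted p = 0.000596). Lum, a proteoglycan of the same family on the same chromosome, was at 4.16, 3.72 and 4.02 on the DNTLX3+ arrays, against 4.11, 4.23 and 3.95 on the RAG-/- arrays, under the medians throughout. Fn1, fibronectin, which macrophages also make, was at 5.59, 5.78 and 5.27 on the DNTLX3+ arrays, against 6.75, 6.41 and 6.95 on the RAG-/- arrays (difference -1.16 ± 0.18 SE; limma adjusted p = 0.00161). Vim, an intermediate filament gene that leukocytes use as well, was at 9.12, 9.48 and 9.40 on the DNTLX3+ arrays, against 10.55, 10.57 and 10.36 on the RAG-/- arrays, and was 2.23-fold higher in RAG-/- (limma adjusted p = 0.000547). Sparc, a matrix glycoprotein, differed by -0.80 and passed the adjusted p only (limma, 0.00491).

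Endothelial genes were not called. Pecam1, which leukocytes share with endothelium, differed by -0.07 (interval -0.38 to 0.24), and by 0.10 with quantile normalization repeated and 0.09 with cyclic loess. Cdh5, the endothelial cadherin, was at 5.39, 5.28 and 5.43 on the DNTLX3+ arrays, against 5.58, 5.48 and 6.16 on the RAG-/- arrays, under the medians. Kdr, a receptor for vascular growth factor, differed by -0.13. Thy1, carried by fibroblasts and by all thymocytes, was at 11.56, 11.70 and 11.67 on the DNTLX3+ arrays, against 11.42, 11.42 and 11.46 on the RAG-/- arrays, a difference of 0.21 with an interval of -0.05 to 0.48.

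**Figure D3:**
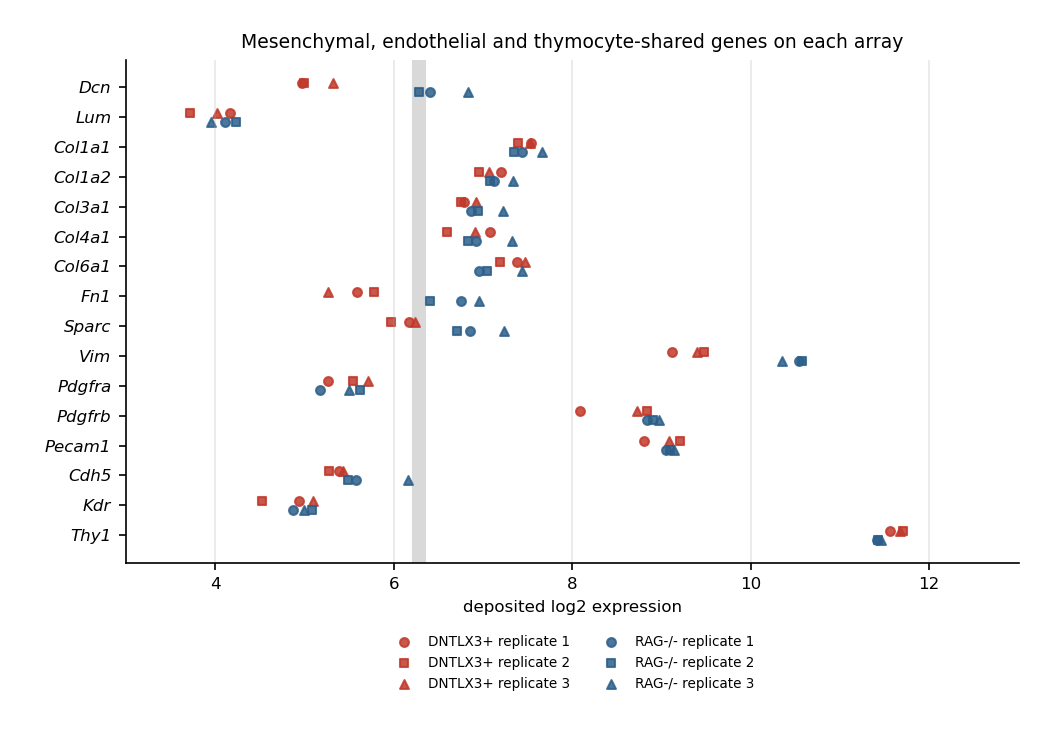
Deposited log2 expression (x axis) of the mesenchymal and endothelial genes and Thy1 on each array, DNTLX3+ in red above RAG-/- in blue, with a marker shape for each replicate and a grey band over the array medians. The group means of Dcn, Fn1 and Vim differ by over 1 log2 unit and their arrays do not overlap, while the collagen values of the groups overlap.

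The RAG-/- arrays were not alike for these genes. On replicate 3, 16 of the 41 genes lay at least 0.5 log2 units above the mean of replicates 1 and 2, a limit chosen after the values were seen; 0.968% of all genes did. On replicates 1 and 2 no member lay as far above the other arrays, and 0.567% and 0.552% of all genes did. All 7 cortical genes were among the 16, with an excess of 0.65 (Psmb11) to 1.02 (Prss16). So were 5 of 6 niche signals, Vcam1 at 0.12 being the exception, and Foxn1 (0.54) and Pax1 (0.60) among the regulators, Krt5 (0.70) among the medullary genes and Cdh5 (0.63). Replicate 3 was the highest RAG-/- array for 34 of the 41 genes, against 30.8% of all genes. Mesenchymal genes stood less far above, with a median excess of 0.29 and a highest of 0.49 in Dcn.

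Genes that were not called also stood higher there: the excess was 0.78 for Kitl, 0.51 for Dll4 and 0.47 for Eya1. Lum and Vim went the other way at -0.21 and -0.20, and Krt14, Aire, Epcam, Cldn3, Cldn4 and Cdh1 lay between 0.01 and 0.13. Among markers of other cells, NK genes had a median of -0.15, T-lineage genes of -0.07, and myeloid and dendritic genes of -0.08, where single genes ran from -0.92 to 0.65. The 4 erythroid genes read had a median of -0.37. Other lists lay above 0: the B-lineage list at 0.05, and the further thymic epithelial, mesenchymal and endothelial genes described below at 0.13, 0.20 and 0.15. Replicate 3 was the highest RAG-/- array for 14 of those 18 epithelial, 14 of 19 mesenchymal and 8 of 12 endothelial genes. An excess of at least 0.5 was seen in 3, 1 and 1 of them. Summed on the linear scale, the 7 cortical genes came to 852 to 943 on the DNTLX3+ arrays, against 6968, 6430 and 12339 on RAG-/- replicates 1, 2 and 3. For the myeloid and dendritic list the same sum was 10270, 8954 and 10632 on RAG-/- replicates 1, 2 and 3. Replicate 3 was the highest RAG-/- array for only 6 of those 20 genes. The list's brightest genes on the RAG-/- arrays were among the 6: H2-Ab1, H2-Aa and Cd74, with an excess of 0.65, 0.47 and 0.39. They belong to the MHC class II route, which cortical epithelium shares with dendritic cells. Among the RAG-/- arrays the sum was lowest on replicate 3 for the NK, erythroid and T-lineage lists. No test was made of these differences within a group.

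**Figure D4:**
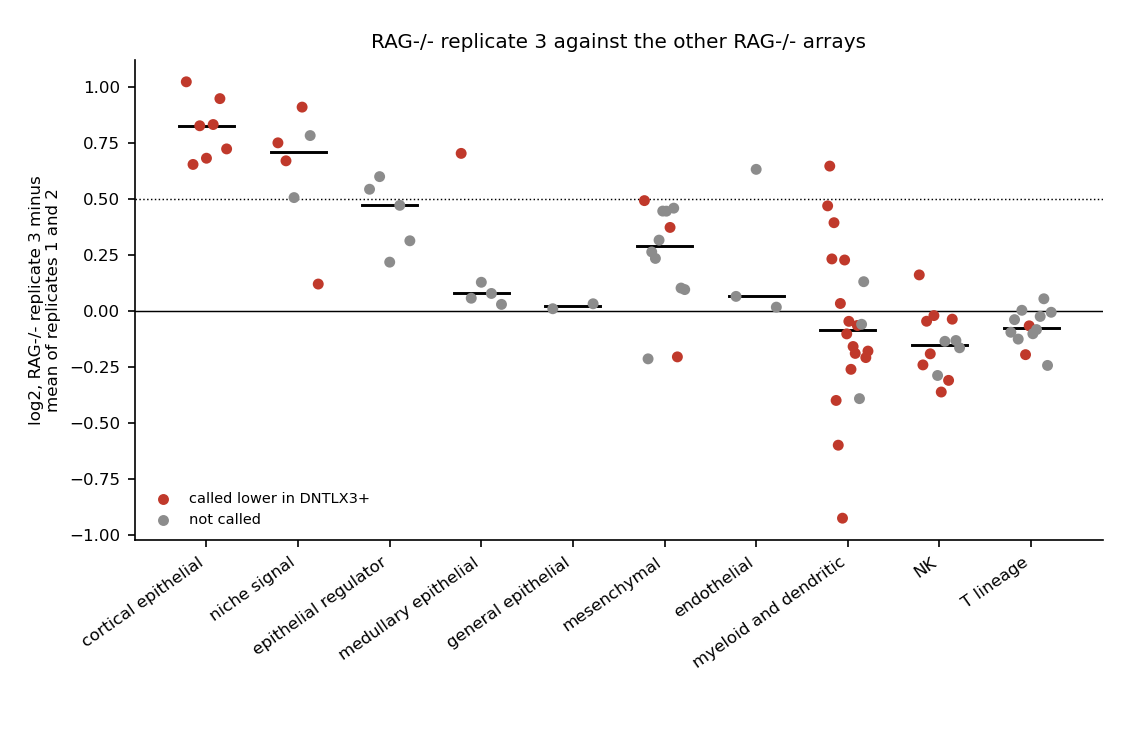
Excess of RAG-/- replicate 3 over the mean of RAG-/- replicates 1 and 2 (y axis, log2 units) for each gene of the listed groups, red where the gene was called lower in DNTLX3+; bars are group medians and the dotted line stands at 0.5. The 7 cortical genes all lie above the line, and the T-lineage genes lie near 0. The erythroid and B-lineage lists and the further thymic epithelial, mesenchymal and endothelial genes are not drawn.

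Leaving out RAG-/- replicate 3 kept 14 of the 15 calls, Il7 being lost. Prss16 then differed by -5.25, Ccl25 by -4.76, Krt18 by -3.08 and Krt8 by -2.08, and all 7 cortical genes were still called. Vcam1 hardly moved, at -3.35. Foxn1 stood at -0.57 with a limma adjusted p of 0.0423. Pax1 no longer passed the adjusted p, at -0.43.

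**Figure D5:**
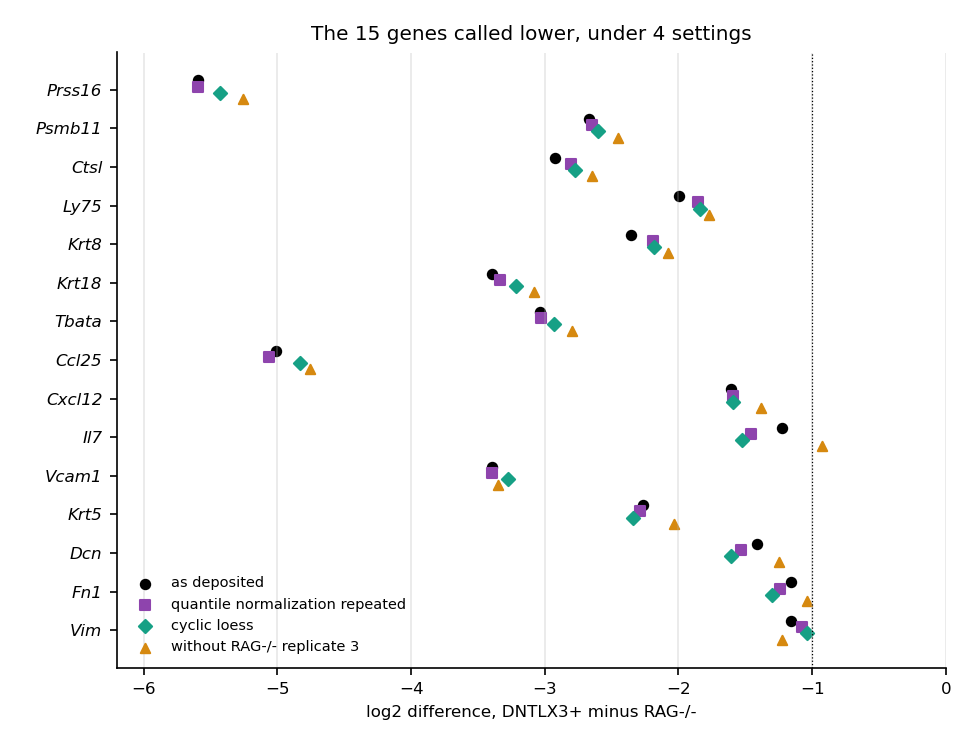
Log2 difference (DNTLX3+ minus RAG-/-, x axis) of the 15 genes called lower, as deposited, after either rescaling, and without RAG-/- replicate 3; the dotted line is the minimum of -1. All symbols of the 7 cortical genes lie left of the line, and Il7 crosses it without replicate 3, at -0.92.

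Markers of other non-thymocytes were lower in DNTLX3+ cells as well, and their part in the values above was not tested. Of 20 myeloid and dendritic markers, 17 were called lower and none higher. Their summed linear level was 1101 to 1225 on the DNTLX3+ arrays and 8954 to 10632 on the RAG-/- arrays. The brightest of them on the RAG-/- arrays were H2-Ab1, H2-Aa and Cd74, with means of 10.74, 10.52 and 10.26. These are genes of the MHC class II route, which cortical epithelium shares, so the sum is not a measure of myeloid cells alone. No array value was at 0; the DNTLX3+ mean lay under the array medians for 16 of these 20 markers and the RAG-/- mean for 2. Myeloid and dendritic cells are also known to make Ly75, Ctsl, Vcam1, Fn1 and Vim. Of 12 NK markers 8 were lower, with sums of 1518 to 2024 on the DNTLX3+ arrays and 3150 to 3747 on the RAG-/- arrays. Of 12 T-lineage markers 2 were lower, Il2ra at -1.19 and Ptcra at -1.11. A further 7 passed the adjusted p (limma) as lower without reaching 1 log2 unit, and the list had a median difference of -0.56. None of 7 B-lineage markers was called, with 2 lower and 2 higher at the adjusted p alone. Of 4 erythroid markers read, Alas2 was lower (-1.69) and Slc4a1 (-0.74) passed the adjusted p only. None of the NK, T-lineage or erythroid markers was called higher. Those that passed the adjusted p as higher without reaching 1 log2 unit were Gzma (0.76) of the NK list, Klf1 (0.94) of the erythroid list, and Cd5 (0.82) and Gata3 (0.66) of the T-lineage list.

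Other genes of the same cell types, listed apart from the 41, were mostly not called. Of 18 further thymic epithelial genes read, among them receptors, keratins and patterning factors, 1 was lower: Ccl19, a chemokine for Ccr7-bearing cells, at -2.12 on its brightest probe set. Its other 3 probe sets gave 0.64, 0.25 and -2.21, so its direction depends on the probe set. A further 6 passed the adjusted p as lower and 1 as higher without reaching 1 log2 unit. None of 19 further mesenchymal and none of 12 further endothelial genes was called. At the adjusted p alone (limma), 2 of the mesenchymal genes were lower and 4 higher, and 2 of the endothelial genes were higher, beside 19.4% lower and 23.0% higher over all genes. The mesenchymal genes that passed it as higher were Col5a1 (0.68), Lox (0.55), Acta2 (0.52) and Fbln1 (0.48). Col5a1 is a further fibrillar collagen gene, and in all 4 the groups did not overlap. The median differences of the mesenchymal and endothelial lists were 0.03 and 0.20, beside 0.11 for all genes.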

How the data were processed

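The deposited values are log2 expression per probe set on 1-colour arrays of biotin-labelled total RNA. Per the submitters' processing notes, the authors made them by RMA, a background-corrected and quantile-normalized probe summary, with R 2.9.0 and its affy package. The 6 arrays still differed in spread, with interquartile ranges from 2.47 to 3.18. With quantile normalization repeated, 834 genes were called lower and 302 higher, against 1010 and 288 as deposited. The build the authors used: not given in the sources used here. Of 34760 probe sets, 6568 numbered before the genome-ordered ones, with no gene listed, were left out. Genes were named from the platform annotation, never from a probe set with several symbols.

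Groups and replicate numbers came from the sample titles. Differences were tested with limma 3.58.1 (lmFit, eBayes, two-sided) in R 4.3.3 without covariates, adjusted by Benjamini-Hochberg over 28192 probe sets. The SD of a probe set had a median of 0.21 in DNTLX3+ and 0.11 in RAG-/-, and the number of arrays limits the precision. All 41 genes are described, by role; of the other lists, at most 3 called genes each are named. The members and lists were chosen with earlier results of these data known. Alternatives were quantile normalization again, cyclic loess, equal medians, a filter on dim probe sets, an intensity trend, array weights, a replicate block, averaged probe sets, other call rules, and leaving out each array. Plots were drawn with matplotlib 3.10.9.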

Additional observations from a re-analysis of the deposited data

How the results depend on the processing

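Of the 15 genes called lower, 14 kept the call under every rescaling, weighting, block and left-out array that could be fitted, and Il7 lost it without RAG-/- replicate 3 (-0.92). Averaging the 2 probe sets of Ccl25 took its difference to -2.97, against -5.01 on the brighter. Cyclic loess moved the median of all genes to 0.00, against 0.11 as deposited. Members called lower numbered 14 to 15 and members called higher 0 to 1 with single arrays left out, cortical genes stayed at 7 and mesenchymal genes at 3. Cldn3 made 1 member higher with quantile normalization repeated, cyclic loess, array weights, without a minimum difference, and without DNTLX3+ replicate 2 (1.18). Over all genes, 820 to 1157 were lower and 216 to 431 higher with an array left out, against 1010 and 288. Without a minimum difference 3858 were lower and 4595 higher. Limma treat called 122 genes lower and 7 higher, 8 members and 0 mesenchymal genes lower, with 6 cortical genes. Leaving out dim probe sets gave 820 lower and 147 higher, with 12 members, of which 1 was mesenchymal; 11 members had no value there. Differences near 0 changed sign: with quantile normalization repeated, Krt14 -0.085, Epcam 0.18, Col1a2 0.042, Pdgfra -0.12 and Pecam1 0.10; with cyclic loess, Krt14 -0.15, Epcam 0.15, Pdgfra -0.18 and Pecam1 0.088; and with equal medians Col1a1 -0.054. With arrays left out, Krt14 ran from -0.022 to 0.15, Aire from -0.020 to 0.43, Epcam from -0.10 to 0.030, Pax9 from -0.15 to 0.044, Col1a1 from -0.060 to 0.094, Pdgfra from -0.061 to 0.19, Pecam1 from -0.16 to 0.047 and Kdr from -0.25 to 0.033; the cause was not tested. With the replicate number as a block, 1013 genes were lower and 289 higher and no member's call changed. Deviations of same-numbered arrays correlated at -0.11, 0.06 and -0.00 across probe sets, and 1 of 6 arrays correlated best with its own number, so the numbers were not taken to pair the samples.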

Other observations

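Of 1010 genes lower in DNTLX3+ cells, 54 also stood at least 0.5 log2 units higher on RAG-/- replicate 3 than on the mean of replicates 1 and 2, the profile of the cortical genes. Of these, 11 were members and 43 were not. Over all 19937 genes, 193 stood as high on replicate 3 (0.968%). Replicate 3 enters both the call and the excess. In the fit without that array, 44 of the 193 were called lower (22.8%), 10 of them members, against 5.18% of all genes. The 193 include 16 members, and the limit of 0.5 was chosen after the values were seen, so these shares do not make a test. The 43 were picked by the profile of the cortical genes, so their values are a description. No theme was counted or tested among them, and of the 18 further thymic epithelial genes listed for this report 1 was called lower, Ccl19. Some of the 43 were picked for naming after their values were seen: Slc46a2, a thymic stromal transporter, fell by 2.03 with a replicate 3 excess of 0.87, and Enpep, the Ly-51 surface peptidase used to sort cortical epithelial cells, fell by 1.89 with an excess of 0.64. Dsp and Dsc3, of the desmosomes that join epithelial cells, fell by 1.88 and 1.02 with excesses of 0.65 and 0.70. These picks do not stand for the 43, which also held the microRNA gene Mir669b (-2.19, excess 0.60), Ache (-2.18, 0.62), Usp17ld (-2.15, 0.51) and Nlgn1 (-1.09, 0.64). The largest falls among the 43 were those of Cbr2, a carbonyl reductase (-4.29, excess 0.83), H2-Ab1, an MHC class II chain that cortical epithelium shares with dendritic cells (-4.19, 0.65), Pltp, a phospholipid transfer protein (-3.41, 0.81), and Gas6, a ligand of TAM receptors (-2.89, 0.83). Tnc, tenascin C of the extracellular matrix, had an excess of 1.04 and fell by 1.58.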
